A study of Arabidopsis thaliana with 11 samples.

Results

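The endosperm expression of 10 genes of the zinc deficiency response of Arabidopsis thaliana was followed through 11 mRNA libraries. They are the transporters ZIP1 (AT3G12750), ZIP3 (AT2G32270), ZIP4 (AT1G10970), ZIP5 (AT1G05300), ZIP9 (AT4G33020) and IRT3 (AT1G60960), the nicotianamine synthases NAS2 (AT5G56080) and NAS4 (AT1G56430), and the transcription factors bZIP19 (AT4G35040) and bZIP23 (AT2G16770). The genes were chosen by name, after ZIP4 had been seen to be lower in homozygous nrpd1 endosperm in these same data, so the differences of these 10 genes between homozygous nrpd1 and its wild type are given as a description, and calls there support nothing about them. They are 10 of the 69198 features counted in the series. Of the 10, 9 had at least 1 count in some library, and 5 passed the filter on low counts in each experiment (ZIP4, IRT3, ZIP5, bZIP19 and bZIP23).

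Zinc is taken into plant cells by proteins of the ZIP family, to which the ZIP transporters and IRT3 belong. In zinc-starved Arabidopsis plants the partly redundant factors bZIP19 and bZIP23 turn on a set of target genes, many of them ZIP transporters and nicotianamine synthases, through a palindromic zinc deficiency response element (ZDRE) in their promoters. Nicotianamine is a small chelator that carries zinc and other metals between cells, and in a seed the endosperm lies on the path of nutrients from the seed coat to the embryo.

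The series asked how RNA polymerase IV, whose largest subunit is encoded by NRPD1, affects gene expression and the dosage of parental alleles in endosperm. Every cross had a Ler mother and a Col father, with flowers emasculated 2 days before pollination and endosperm dissected by hand from seeds of crosses between several plants. In experiment 1, wild type (Ler × Col, 2 libraries) and homozygous nrpd1 (the allele nrpd1a-4 in both parents, Ler and Col, 3 libraries) were collected 6 days after pollination. In experiment 2, wild type (Ler × Col, 3 libraries) and paternal nrpd1 (wild-type Ler mother, nrpd1a-4 Col father, 3 libraries) were collected 6 to 7 days after pollination. The experiments differed in kit (TruSeq Stranded with 15 cycles against SMARTer V4 with 12), in read length (paired 100 bases against single 40 bases) and in stage, so each mutant was set only against its own wild type.

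The ZDRE was searched in the 1000 bases before the annotated start of each gene, on both strands, in the TAIR10.1 genome with RefSeq gene starts. ZIP4, IRT3 and ZIP5 held it, which is 3 of the 10 genes or 30%, against 81 of 27443 protein-coding nuclear genes or 0.295%. The 10 genes were chosen as genes of the zinc deficiency response, which is known to act through this element. The higher share therefore follows from the choice and is no result of these data. The palindromic core TGTCGACA alone, which overlaps every full element, was found before 1.03% of protein-coding genes. The 3 stretches of 60 bases that hold the element are printed because they hold the letters that a low-level transporter, ZIP5, shares with IRT3 and ZIP4, the transporters with the highest levels. All 3 genes lie on the minus strand of chromosome 1, and each sequence is written 5′ to 3′ on that strand with the matched element in capitals. The genes themselves span chr1:3665087-3667139 (ZIP4), chr1:22445299-22447299 (IRT3) and chr1:1544927-1547849 (ZIP5), and the printed stretches lie upstream of them. They span chr1:3667145-3667204 for ZIP4, chr1:22447300-22447359 for IRT3 and chr1:1548647-1548706 for ZIP5.
ZIP4: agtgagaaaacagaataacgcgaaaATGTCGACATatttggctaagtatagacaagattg
IRT3: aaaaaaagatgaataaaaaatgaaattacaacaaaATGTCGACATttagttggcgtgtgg
ZIP5: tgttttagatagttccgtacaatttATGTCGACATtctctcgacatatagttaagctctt
The matched letters were the same in the 3 genes. The element lay 40 to 31 bases before the start of ZIP4 and 25 to 16 bases before that of IRT3, close to the start in both. In ZIP5 it lay 832 to 823 bases before the start. No match was found in this window for ZIP1, ZIP3, ZIP9, NAS2, NAS4, bZIP19 or bZIP23, which says only that these letters are not in it. Among 32 other genes of zinc and nicotianamine handling, ZIP10 and ZIP12 held the element, and among 19 genes of iron deficiency, storage and transport none did.

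Libraries held 15926510 to 20817788 counts (experiment 1) or 24845721 to 35629462 (experiment 2), of which 17.8% to 18.4% and 7.05% to 7.82% were assigned to a parental allele. NRPD1 itself (AT1G63020) was at 47.5 and 39.6 CPM (counts scaled to the normalised library size) in wild type and at 22.0 to 30.7 CPM in homozygous nrpd1, and at 8.41 to 10.4 against 1.79 to 5.89 CPM in experiment 2. A list of 14 endosperm markers had summed levels of 12835 to 13569 CPM in wild type and 11838 to 17347 in homozygous nrpd1, and 3008 to 5632 against 1626 to 3021 in experiment 2, with IKU2, MINI3, PHE1 or MEA at 0 in some libraries. The 13 seed coat markers summed to 990 to 1390 against 1089 to 1393 CPM, and to 364 to 439 against 255 to 522 in experiment 2. Medians per library ran the other way in experiment 1, at 2.95 to 9.19 CPM for endosperm and 13.2 to 27.6 CPM for seed coat markers. In experiment 2 they overlapped, at 4.82 to 12.7 and 2.63 to 15.3 CPM. The endosperm sums thus rest on a few abundant genes and do not measure the share of either tissue. The 14 embryo markers summed to 128 to 147 against 108 to 131 CPM, and to 45.2 to 75.6 against 32.5 to 83.0, with PLT2 and CUC2 at 0 in most libraries. The 10 seed storage genes summed to 19033 to 24278 CPM in wild type against 26547 to 54550 in homozygous nrpd1, with no overlap, and to 3338 to 5217 against 1128 to 4441 in experiment 2. The 8 heat shock genes summed to 207 to 233 against 211 to 398 CPM, and to 280 to 314 against 244 to 612 in experiment 2, highest in paternal replicate 2. Homozygous nrpd1 replicate 2 held the highest of these storage sums and stood apart from its group. In experiment 2, wild type replicate 1 and paternal nrpd1 replicate 2 resembled each other across genotypes. The part of these differences in the results on zinc genes was not tested.

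In wild-type endosperm the zinc genes split into a high, a middle and a near-absent tier. The high tier was IRT3 and ZIP4, a pair of transporters that in Arabidopsis take up zinc and respond to zinc deficiency. In experiment 1, IRT3 stood at 155 ± 26.7 CPM per kilobase of exon (SD, n = 2) and ZIP4 at 134 ± 12.6, and their libraries overlapped. In experiment 2, IRT3 stood at 230 ± 41.6 and ZIP4 at 90.3 ± 25.0 CPM per kilobase (n = 3), with every IRT3 value above every ZIP4 value. The middle tier was the pair of regulators: bZIP23 was at 11.5 ± 0.588 CPM per kilobase in experiment 1 and 10.9 ± 0.441 in experiment 2. Its partner bZIP19 was at 9.49 ± 0.653 and 4.54 ± 0.906 CPM per kilobase, lower than bZIP23 in every wild-type library of either experiment. All other members had means of 1.11 CPM per kilobase or less in both experiments. Among these low genes, the ranges of ZIP9 and ZIP5 overlapped in both experiments, and in experiment 2 those of ZIP9, ZIP1 and NAS2 did too.

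**Figure D1:**
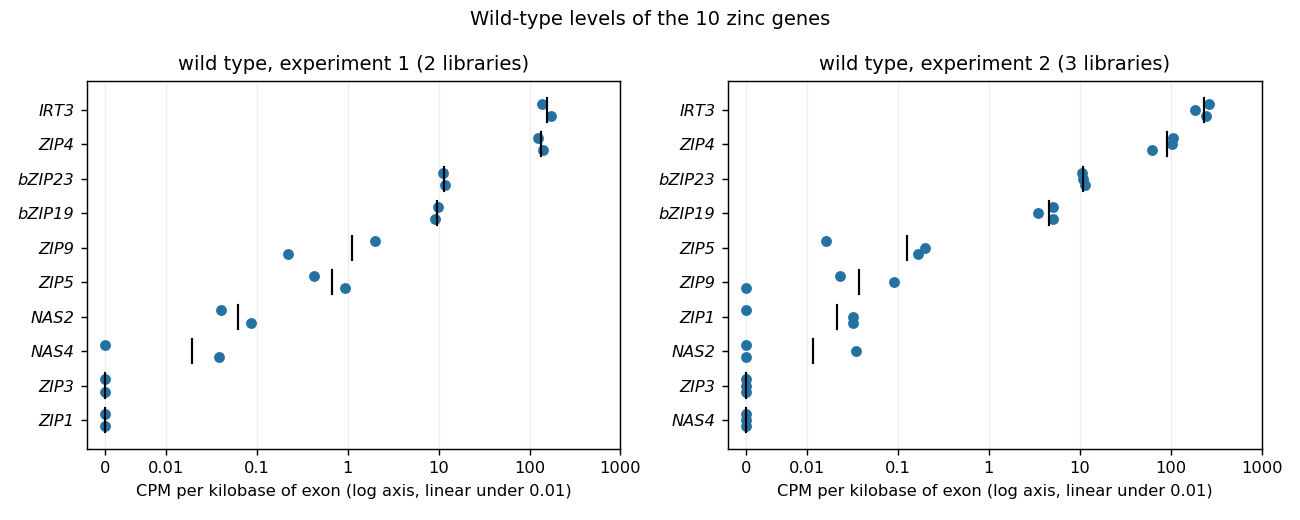
Levels of the 10 zinc genes in wild-type endosperm of experiment 1 (left) and experiment 2 (right), as CPM per kilobase of exon on a log axis that is linear under 0.01; points are libraries and vertical marks the mean. IRT3 and ZIP4 lie at 61.6 CPM per kilobase or higher in all 5 libraries, bZIP23 and bZIP19 between 3.50 and 11.9, and the other 6 genes at 2.01 or lower.

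ZIP4 was lower in homozygous nrpd1 endosperm than in wild type, from both parental alleles. Wild-type libraries held 235 and 205 CPM, whereas the homozygous nrpd1 libraries held 80.6, 92.8 and 95.2 CPM, in order of replicate. Every mutant library lay below every wild-type library, and the highest mutant value was less than the lowest wild-type value by more than the range within either group. The means were 220 ± 20.7 (SD, n = 2) and 89.5 ± 7.84 CPM (n = 3), which is a log2 difference of -1.30 (SE 0.11) or a level 2.46-fold lower. Without homozygous replicate 2, the library that stood apart, the log2 difference was -1.32. For scale, 90 of the 18570 features tested, or 0.485%, had a log2 difference as low. In bulk endosperm, fewer cells that express a gene and less of its RNA per cell cannot be told apart.

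The reads that carry a parental variant were fewer in homozygous nrpd1 for each parent's copy of ZIP4. Wild-type reads of the maternal (Ler) copy came to 27.8 and 23.9 CPM, and those of homozygous nrpd1 to 10.3, 12.1 and 11.2 CPM. Reads of the paternal (Col) copy came to 14.6 and 13.0 CPM against 4.93, 5.63 and 5.47 CPM in the mutant. For either copy the mutant libraries lay below the wild-type libraries without overlap, and the ratio of wild-type to mutant means was 2.30 for the maternal and 2.59 for the paternal copy. The maternal share, the percentage of allele-assigned counts that came from Ler, was 65.5% and 64.6% in wild type against 67.7%, 68.3% and 67.2% in homozygous nrpd1. Behind them stand 759 and 710 allele counts of wild type and 260 to 351 of the mutant, and the 95% Wilson interval of every one of the 5 libraries held 66.7%, the share of 2 maternal and 1 paternal genome copies expressed alike.

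IRT3, the other abundant transporter, was also lower in every homozygous nrpd1 library. Wild type held 333 and 260 CPM of IRT3 against 160, 110 and 148 CPM in the mutant, with no overlap. The means of 296 ± 51.2 (SD, n = 2) and 139 ± 26.2 CPM (n = 3) gave a log2 difference of -1.09 (SE 0.19) or a level 2.12-fold lower, and -0.94 without homozygous replicate 2. As low a log2 difference was seen in 131 features, or 0.705% of those tested. IRT3 is one of 5081 genes on a holdout list deposited with experiment 1, a list whose genes had a pooled maternal share of 4.12% to 16.6% in homozygous nrpd1 against 55.2% and 62.5% in wild type. For IRT3 the strain of the maternal copy and the mutation therefore cannot be told apart in homozygous nrpd1. IRT3 had 0 allele-assigned counts in all 11 libraries, so its parental origin could not be read. ZIP4 is not on the list, and its maternal share in homozygous nrpd1 was given above. Over all features off the list, the pooled maternal share was 64.8% to 72.7% in homozygous nrpd1 against 62.1% and 63.1% in wild type. A slightly higher share in the mutant is thus not particular to ZIP4.

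The estimates for the regulators and ZIP5 lay near 0 in the same comparison. For bZIP19, wild-type values of 21.5 and 23.7 CPM stood against 22.5, 26.3 and 26.4 CPM in homozygous nrpd1 (log2 0.15, SE 0.12), and the groups overlapped. For bZIP23, 18.8 and 17.5 CPM stood against 19.2, 24.1 and 16.1 CPM (log2 0.12, SE 0.18), again with overlap. ZIP5, which holds the same ZDRE letters as ZIP4 and IRT3 but far from its start, had wild-type values of 2.01 and 0.936 CPM against 1.41, 1.81 and 1.24 CPM in the mutant (log2 0.01, SE 0.42). The wild-type values of ZIP5 enclosed all 3 mutant values. Counts of bZIP19 and bZIP23 in either experiment may be altered by AT4G35050 and AT2G16780, which overlap them on the opposite strand. The sources used here do not say whether counting used strand.

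ZIP9, a transporter gene induced by zinc deficiency in Arabidopsis, was under the filter on low counts used with edgeR. The wild-type libraries held 6 and 58 counts of it, against 1, 1 and 2 counts in homozygous nrpd1. The mutant values lay below both wild-type values, but the wild-type libraries differed from each other by far more than the lower of them differed from the mutant. NAS2 had 2 and 1 counts against 0, 1 and 0 in homozygous nrpd1, and NAS4 had 1 count in wild type replicate 1 and 0 in the other 10 libraries. ZIP1 had 0 counts in all 5 libraries of experiment 1, and ZIP3 had 0 counts in all 11 libraries. A count of 0 allows up to 3 counts, which is 0.143 to 0.201 CPM in experiment 1 and 0.0675 to 0.134 CPM in experiment 2, for counting error only.

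Among the 5 tested members, edgeR called 1 in this comparison (ZIP4, lower), where 62 of 18570 features or 0.334% were called, 43 higher and 19 lower. Of these 62 features, 31 are on the holdout list, where strain of the maternal copy and mutation cannot be told apart. That call of ZIP4 held in 6 of 11 alternatives, and was lost without either wild-type library, without homozygous replicate 1 or 3, and in 1 fit of all 11 libraries. DESeq2, which filtered low counts by its own rule that ZIP9 passed, called 3 members lower (ZIP4, IRT3 and ZIP9), where it called 524 of 20612 features or 2.54%. Among the 5, 2 lay below wild type in every mutant library (ZIP4 and IRT3), as did 17.3% of all features. The median log2 difference of the 5 was 0.01, against 0.00 over all features tested. These counts come from the comparison that the genes were chosen on.

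**Figure D2:**
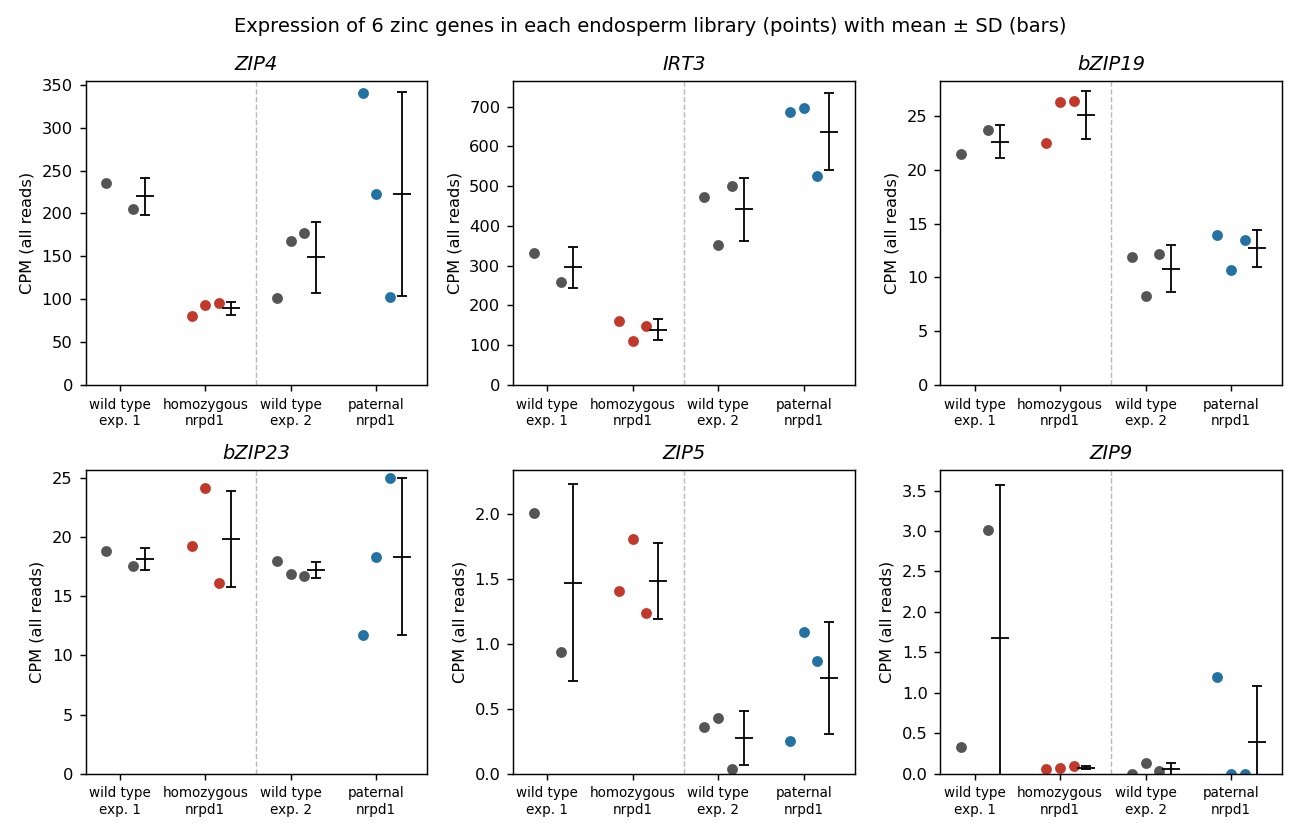
CPM of ZIP4, IRT3, bZIP19, bZIP23, ZIP5 and ZIP9 in each library (points, in order of replicate) with the mean ± SD of each group (bars, cut at 0), each axis starting at 0; the dashed line separates the experiments. ZIP4 and IRT3 are lower in all 3 homozygous nrpd1 libraries than in wild type, while in experiment 2 the ZIP4 groups overlap and the 3 paternal nrpd1 values of IRT3, 525 to 697 CPM, lie above the wild-type values of 351 to 501.

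The paternal comparison asked what changes when the father alone lacks NRPD1, and it was not used in choosing the genes. Wild-type libraries held 101, 168 and 177 CPM of ZIP4, against 341, 223 and 103 CPM in paternal nrpd1. The groups overlapped, since paternal replicate 3 lay within the wild-type range, close to wild type replicate 1. Means were 149 ± 41.1 and 222 ± 119 CPM (SD, n = 3 each), and the log2 change of 0.58 (SE 0.48) did not pass the test (edgeR quasi-likelihood, adjusted p = 0.686). Without paternal replicate 1 the log2 change was 0.14, and without wild type replicate 1 and paternal replicate 2, the pair that resembled each other, it was 0.31, a setting chosen after seeing the data.

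For IRT3, wild-type values of 473, 351 and 501 CPM stood against 687, 697 and 525 CPM in paternal nrpd1. All 3 paternal libraries lay above all 3 wild-type libraries, 1 of 5 tested members to do so, against 6.58% of all features. The log2 change of 0.53 (SE 0.35) did not pass the test (edgeR adjusted p = 0.648), with means of 442 ± 79.8 and 637 ± 96.6 CPM (SD, n = 3 each). It was 0.45 without wild type replicate 1 and paternal replicate 2. When libraries were scaled by total counts alone, a setting chosen after seeing the data, the groups overlapped (373 to 577 against 523 to 681 CPM). That scaling moved the median log2 change of all features to -0.12.

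No other member passed the test in paternal nrpd1. ZIP5 had wild-type values of 0.358, 0.428 and 0.0349 CPM against 0.255, 1.09 and 0.871 CPM (log2 1.40, SE 0.98, edgeR adjusted p = 0.656), which are 1 to 33 counts per library. bZIP19 had 11.9, 8.31 and 12.2 CPM against 13.9, 10.7 and 13.5 CPM (log2 0.23, SE 0.30, edgeR adjusted p = 0.787). bZIP23 had 18.0, 16.9 and 16.7 CPM against 11.7, 18.3 and 25.0 CPM (log2 0.09, SE 0.33, edgeR adjusted p = 0.932). The wild-type and paternal ranges of all 3 genes overlapped, and for bZIP23 the paternal libraries ran both lower and higher than every wild-type library. ZIP9 had 0, 6 and 1 counts against 42, 0 and 0 in paternal nrpd1, so 1 library held nearly all of them. NAS2 had 0, 2 and 0 counts against 0, 8 and 2, and ZIP1 had 1, 2 and 0 counts against 0 in each paternal library.

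The edgeR test called 0 of the 5 members and 0 of 18901 features (0%) in paternal nrpd1, while 1496 features (7.91%) but no member had an unadjusted p under 0.05. DESeq2 called 10 of 20904 features (0.0478%), 4 higher and 6 lower, and no member. The log2 change was above 0 in all 5 members with a median of 0.53, against a median of 0.01 over all features. The 5 values come from the same 6 libraries and are not independent. In this comparison the log2 changes of the 6 tested heat shock genes were also all above 0, with a median of 1.28, and those of the 10 seed storage genes were all below 0, with a median of -1.47; edgeR called 0 of either list, and DESeq2 called 0. Of these, 1 heat shock and 3 storage genes had an unadjusted p under 0.05. The part of these lists in the members' values was not tested.

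Wild-type parental dosage was the other measure that played no part in the choice of genes. The departure of ZIP4 from 2 maternal to 1 paternal did not pass the test in experiment 1, with a log2 departure of the maternal to paternal ratio of -0.10 (SE 0.17, edgeR adjusted p = 0.748). In experiment 2 its maternal share was 68.7%, 60.5% and 70.6% in wild type, from 83, 261 and 177 allele counts, with a log2 departure of -0.03 (SE 0.21, edgeR adjusted p = 0.951). In paternal nrpd1 the ZIP4 share was 71.4%, 59.8% and 61.7%, from 419, 174 and 162 allele counts. The ranges overlapped, and the log2 change of the ratio was -0.07 (SE 0.29, edgeR adjusted p = 1). Of 8417 genes tested in experiment 1, 2108 or 25% departed from the ratio in wild type, and of 7371 in experiment 2, 1367 or 18.5% did, but not ZIP4, bZIP23 or, in experiment 1, bZIP19. In paternal nrpd1, 5 of 7371 genes or 0.0678% changed their ratio, and no member was among them.

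The regulators were measured by far fewer allele counts. bZIP19 had maternal shares of 67.1% and 72.9% in wild type of experiment 1, from 85 allele counts each, and its departure from 2 to 1 did not pass the test (log2 0.22, SE 0.29, edgeR adjusted p = 0.663). In homozygous nrpd1 its shares were 77.8%, 79.0% and 71.4%, from 62 to 84 allele counts, and the groups overlapped. bZIP23 had shares of 60.7% and 72.7% in wild type of experiment 1 (log2 -0.01, SE 0.40, edgeR adjusted p = 0.997). In homozygous nrpd1 the bZIP23 shares were 71.4%, 88.9% and 70.5%, where the high value came from replicate 2, with 48 maternal and 6 paternal counts and a Wilson interval of 77.8% to 94.8%. Over all features off the holdout list, the pooled share was also highest in that library, at 72.7%. It was 67.1% and 64.8% in replicates 1 and 3, and 63.1% and 62.1% in wild type. A higher share in homozygous nrpd1 is thus not particular to the regulators.

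In experiment 2 the bZIP23 shares were 65.0%, 66.7% and 71.4% in wild type (log2 0.08, SE 0.46, edgeR adjusted p = 0.949). In paternal nrpd1 they were 52.2%, 66.7% and 66.7% (log2 change of the ratio -0.35, SE 0.64, edgeR adjusted p = 0.988), from 21 to 42 allele counts. bZIP19 had 2 to 18 allele counts per library in experiment 2, under the minimum for the test. Its 10 allele counts in wild type replicate 1 were all maternal, a share of 100% with a Wilson interval of 72.2% to 100%, while replicates 2 and 3 had shares of 44.4% and 46.7%. The depth behind the shares of both regulators was low in this experiment.

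**Figure D3:**
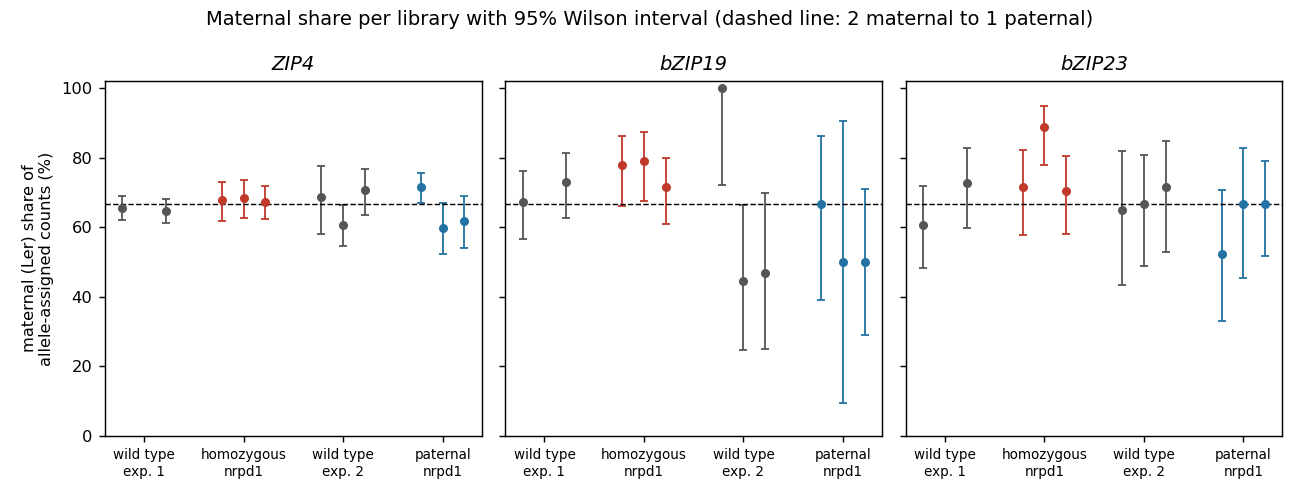
Maternal (Ler) share of allele-assigned counts of ZIP4, bZIP19 and bZIP23 in each library, in percent, with 95% Wilson intervals for counting error; the dashed line marks 66.7%. ZIP4 stays between 59.8% and 71.4% in all 11 libraries, and the intervals of the regulators are wider in experiment 2 than in experiment 1.

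The other genes of zinc handling had median changes near 0 in both mutants. Of 32 other zinc and nicotianamine genes, 21 were tested in homozygous nrpd1, of which edgeR called 0, with 2 at an unadjusted p under 0.05, against 11.7% of all features. DESeq2 called 1 of 24 (HMA4, lower), against 2.54% of all features. Their median log2 change was 0.01, against 0.00 over all features. In paternal nrpd1, 20 were tested, and edgeR called 0, with 0 called by DESeq2 and a median of -0.01. There, 0 had an unadjusted p under 0.05, against 7.91% of all features. Of the 11 other uptake transporters 6 were tested, with median log2 changes of 0.19 in homozygous and 0.35 in paternal nrpd1. ZTP29, a zinc transporter of the endoplasmic reticulum, had means of 35.9 and 34.5 CPM in experiment 1 and 50.3 and 71.3 CPM in experiment 2, wild type first. IAR1, a ZIP-related membrane protein known from auxin conjugate responses, had 44.3 and 44.5 CPM in experiment 1. ZIP7 had 9.69 and 9.25 CPM and ZIP6 had 6.08 and 8.47 CPM there. Some of the 32 genes, IAR1 among them, are on the holdout list, and the medians include them. For those, the strain of the maternal copy and the mutation cannot be told apart in homozygous nrpd1. The lists of iron genes and of genes with the ZDRE also hold some.

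Of 14 genes of zinc efflux and storage, 11 were tested in each comparison, with median log2 changes of -0.03 and -0.02. HMA4, a pump that exports zinc from cells, had means of 489 ± 55.4 CPM (SD, n = 2) against 351 ± 16.4 CPM (n = 3) in homozygous nrpd1, with a log2 change of -0.48 (SE 0.10, edgeR adjusted p = 0.199). Its range of 332 to 364 CPM in the mutant lay below that of 450 to 529 CPM in wild type, as did the range of 17.3% of all features. In paternal nrpd1 the log2 change of HMA4 was -1.07 (SE 0.50, edgeR adjusted p = 0.616). HMA2, a related zinc pump, had log2 changes of -0.33 (SE 0.14, edgeR adjusted p = 0.439) and -0.77 (SE 0.42, edgeR adjusted p = 0.624). In homozygous nrpd1 the estimates of both pumps had the sign of ZIP4 and IRT3, and in paternal nrpd1 the opposite sign. MTP1, which loads zinc into vacuoles and is on the holdout list, had 93.2 and 96.9 CPM in experiment 1. FRD3, a citrate exporter, had 106 and 146 CPM.

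Of 6 genes of nicotianamine synthesis and transport, 4 were tested in homozygous and 3 in paternal nrpd1, with median log2 changes of 0.09 and -0.39. YSL2, a carrier of metal bound to nicotianamine, had 148 and 159 CPM in experiment 1, and OPT3, an oligopeptide transporter with a role in iron allocation, had 121 and 133 CPM. YSL3 had 11.3 and 11.9 CPM there, and YSL1 had 0.493 and 0.437 CPM. bZIP24, the third gene of the bZIP19 and bZIP23 group and known for salt responses, was under the filter on low counts, at 0 CPM in every library of wild type. Of 19 genes of iron deficiency, storage and transport 9 were tested, with 0 called by edgeR or DESeq2 in either comparison. In homozygous nrpd1 2 had an unadjusted p under 0.05, against 11.7% of all features, and in paternal nrpd1 0, against 7.91%. The median log2 changes were -0.13 and 0.02. The tested genes include ferritins, whereas the regulators FIT, BHLH38, BHLH39, BHLH100 and BHLH101 were under the edgeR filter on low counts. The medians are therefore no readout of an iron deficiency response. Of the regulators that were tested, PYE had log2 changes of 0.53 (SE 0.18, edgeR adjusted p = 0.379) in homozygous and -0.75 (SE 0.33, edgeR adjusted p = 0.616) in paternal nrpd1. BTS had -0.28 (SE 0.07, edgeR adjusted p = 0.297) and -0.74 (SE 0.41, edgeR adjusted p = 0.624). NRAMP3 and NRAMP4, which release metals from vacuoles, had log2 changes of -0.18 and -0.13 in homozygous nrpd1, and the ferritins FER3 and FER1 had -0.37 and 0.20.

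**Figure D4:**
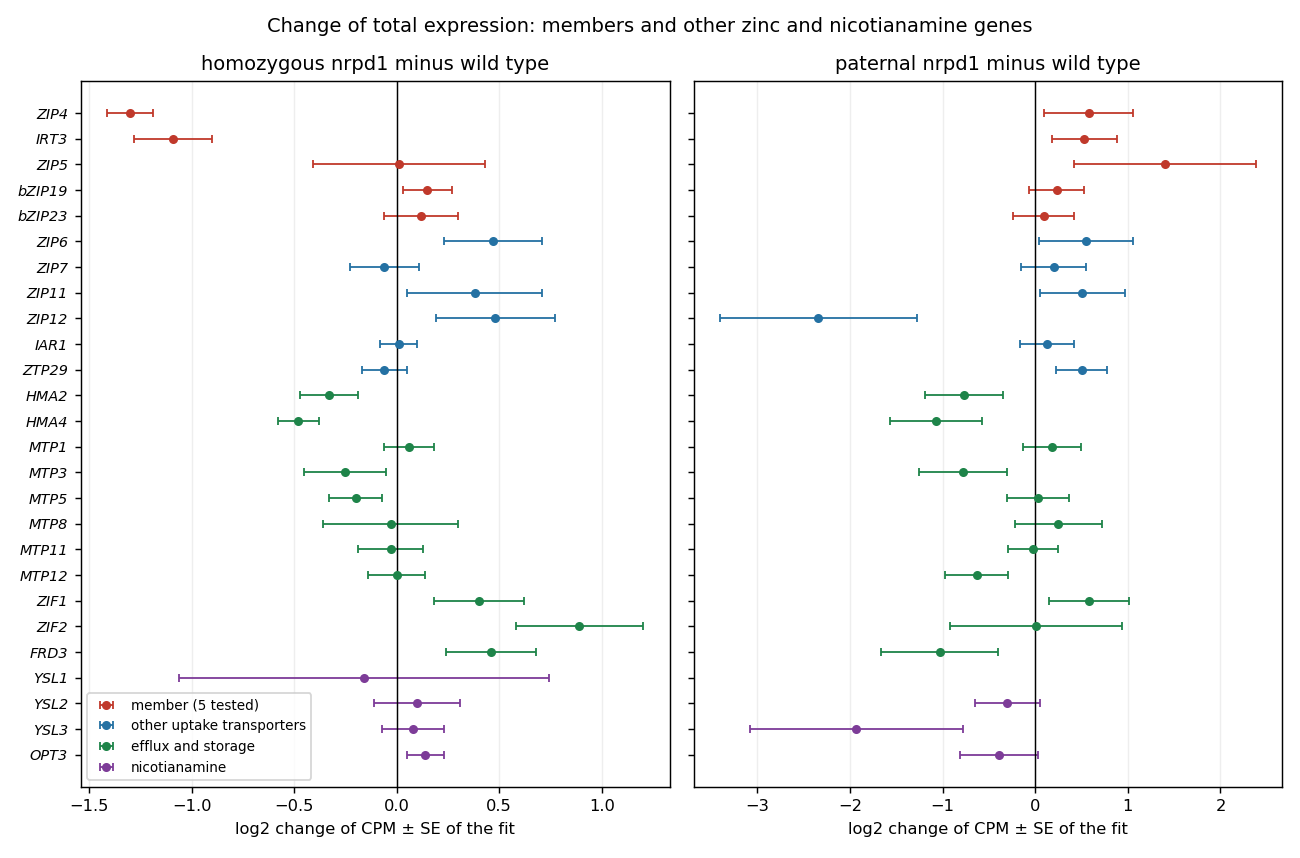
Log2 change of total expression with the standard error of the fit for the 5 tested zinc genes (red) and other genes of zinc uptake (blue), zinc efflux and storage (green) and nicotianamine (purple), in homozygous nrpd1 (left) and paternal nrpd1 (right); the panels have different axes. ZIP4 and IRT3 have the lowest estimates on the left, -1.30 and -1.09, and all 5 members have estimates above 0 on the right, with errors of 0.30 to 0.98.

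Other genes with a ZDRE before their start had median changes near 0, with single genes that DESeq2 called. Of the 81 genes with the element, 51 were tested in homozygous nrpd1, and 1 was called by edgeR, which is ZIP4, the gene whose value led to the choice, so that call is no result about the element. The median log2 change was 0.02. Among the 48 tested genes with the element that are not members, edgeR called 0, and the median was 0.06. Of these 48, 5 had an unadjusted p under 0.05, against 11.7% of all features. DESeq2 called 3 of 53 genes with the element that are not members, against 2.54% of all features. These were AT1G22340, with means of 0.0260 CPM in wild type and 1.37 in the mutant, AT4G20460, with 5.02 and 9.30 CPM, and AT5G41570, with 0 and 0.755 CPM. In paternal nrpd1, 43 such genes were tested, edgeR and DESeq2 each called 0, and the median was 0.03. Of these 43, 1 had an unadjusted p under 0.05, against 7.91% of all features. ZIP12, one of the other zinc transporters with the element, had a log2 change of 0.48 (SE 0.29, edgeR adjusted p = 0.544) in homozygous nrpd1, opposite in sign to ZIP4 and IRT3. In paternal nrpd1 the change of ZIP12 was -2.34 (SE 1.06, edgeR adjusted p = 0.616), again opposite in sign to ZIP4 and IRT3. Its means there were low, at 0.416 CPM in wild type and 0.0787 CPM in the mutant. ZIP10 had 0 CPM in all 4 groups.

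Profiles over the 11 libraries were compared with that of ZIP4 by the root mean square difference of log2(CPM + 1), centred for each experiment, over 17198 features. The nearest were AT1G44000 at 0.331, AT1G33470 at 0.332, BBX14 (AT1G68520) at 0.346, AT1G80640 at 0.357 and AT5G14450 at 0.372, of which BBX14 and AT1G80640 are on the holdout list. A profile with no change at all would lie at 0.621. IRT3 ranked 25 at 0.415, nearer than that flat profile. bZIP19 at 0.671, ZIP5 at 0.716 and bZIP23 at 0.803 lay farther from ZIP4 than the flat profile does. The libraries include those of the contrast on which ZIP4 was picked, so the distances are a description that supports nothing.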

How the data were processed

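The authors deposited, per the file headers, raw counts per feature for 11 endosperm mRNA libraries: totals, and separate Col and Ler counts of reads with a parental variant. TopHat, HTSeq, cutadapt, FastQC, Trim Galore and the build TAIR10 stand in the submitters' processing notes without versions. How alleles were assigned and whether strand was used are not given in the sources used here. A deposited list of 5081 gene identifiers of chromosomes 1 and 2 (the holdout list, a unit of type other), cited by the labels of experiment 1 alone, was left out of allele tests there. It holds IRT3 and NAS4. Summary lines that name no gene, 11.6% to 13.3% of the counts in experiment 2, were left out.

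Total counts were tested with edgeR 4.0.16 (R 4.3.3; TMM factors, filterByExpr, quasi-likelihood test, two-sided, Benjamini-Hochberg adjustment over all features tested, threshold 0.05), with each mutant fitted beside its own wild type. CPM is counts divided by the TMM-scaled library. Ler and Col counts were tested in a model with terms for library, allele and the interaction of allele and genotype, where the 2 columns together averaged 20 counts or more per library. The wild-type ratio was tested in this same model. The mutant libraries of the experiment therefore share in the estimate of spread behind the wild-type ratio tests. Log2 values are mutant minus wild type with the standard error of the fit. DESeq2 1.42.0, other factors, filters, fits and left-out libraries were tried as alternatives. The code was tested on simulated data. Wilson intervals cover counting error only. Since parent and strain always coincided, a maternal share is also a Ler share.

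The genes, gene lists and tests were chosen with earlier results of these data known. All 10 members are named. From each list of zinc, nicotianamine and iron genes the text names genes called by edgeR (there were none) and up to 4 genes with the highest wild-type CPM. Some iron regulators are named besides, chosen after their values were seen. Other genes with the promoter element (AT1G22340, AT4G20460, AT5G41570, ZIP10 and ZIP12) are named for a count of 5 or fewer, chosen after their values were seen. Marker lists are given by sums and counts, with medians for the endosperm and seed coat lists. Exon lengths, gene starts and promoter sequence come from RefSeq on TAIR10.1. Replicates are separate samples per the labels, and p-values measure only the spread between these samples. Replicate pairs of a group differed by more than sampling noise, so no library was counted as a repeat of another.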

Additional observations from a re-analysis of the deposited data

Results flagged for a closer look

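IRT3 drew attention because its libraries moved in opposite directions in the 2 mutants, each without overlap with its wild type. Its log2 difference was -1.09 (SE 0.19) in homozygous nrpd1 and 0.53 (SE 0.35) in paternal nrpd1. The difference between the mutants was not tested, since kit, read length and stage differed between the experiments. The homozygous value comes from the comparison on which the genes were chosen, and the separation in experiment 2 was not seen when libraries were scaled by total counts. IRT3 is also on the holdout list, so in homozygous nrpd1 the strain of its maternal copy and the mutation cannot be told apart.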

How the results depend on the processing

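In homozygous nrpd1 the 62 calls over all features became 524 in DESeq2, 12 in 1 fit of all 11 libraries and 302 with the replicate block, and ranged from 0 to 44 with 1 library left out. They were 0 without either wild-type library, 6 without homozygous replicate 1 and 34 without replicate 3. In paternal nrpd1 the 0 calls became 10 in DESeq2 and 1 in the fit of all 11 libraries, and stayed 0 with any 1 library left out. Genes off the 2 to 1 ratio in wild type of experiment 1, 2108, came to 1395 with listed genes kept and 1399 to 2653 with 1 library left out. The highest of these, 2653, was without homozygous replicate 2, a mutant library that shares in the estimate of spread. Changed ratios in paternal nrpd1, 5, came to 3 at a minimum of 50 allele counts and 2 to 10 with 1 library left out. The cause of these shifts was not tested. The log2 difference of ZIP4 in homozygous nrpd1 lay between -1.38 and -1.20 in all 11 alternatives run, and that of IRT3 between -1.25 and -0.90. In paternal nrpd1 ZIP4 ran from 0.14 to 0.92, IRT3 from 0.38 to 0.65 and ZIP5 from 0.89 to 1.92, and no member was called in any of 13 alternatives. Estimates near 0 crossed it: ZIP5 (-0.44 to 0.65) and bZIP23 (-0.04 to 0.26) in homozygous nrpd1, bZIP23 in paternal nrpd1 (-0.20 to 0.31), the wild-type ratios of ZIP4 in experiment 2 (-0.19 to 0.21) and of bZIP23 (-0.37 to 0.41 and -0.05 to 0.16), and the ZIP4 ratio change in paternal nrpd1 (-0.33 to 0.08). Replicate numbers were not treated as pairs. In experiment 1, same-numbered libraries had correlated deviations of 0.341 and 0.365, from 2 pairs only, and differently numbered ones of -0.365 to 0.162. With 2 wild-type libraries these deviations mirror each other, so pairing could not be decided there. In experiment 2 the same-numbered values were -0.551, -0.729 and 0.15, with no sign of pairing by number. A blocked count is therefore no more than another setting. Allele counts of 2 to 18 per library for bZIP19 in experiment 2, and 0 for IRT3, limit what can be said of their parental origin.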
